A study of Mus musculus with 5 samples.

Results

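The DNAJ proteins, also called HSP40s or J-domain proteins, are the co-chaperones of HSP70. Genes were taken as members where the symbol in the deposited expression table began with Dnaja, Dnajb or Dnajc followed by a digit, and pseudogene names were left out. The rule found 45 of the 23361 genes in the table, 4 in class A, 13 in class B and 28 in class C. Levels are in FPKM, that is fragments per kilobase of gene scaled to library size. Averaged over all libraries, 36 members reached 1 FPKM, namely 4 of class A, 9 of class B and 23 of class C. The 9 that did not pass this minimum are described by their levels only.

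All libraries came from proliferating C2C12 cells, an immortalised mouse myoblast line used as a model of muscle progenitors and grown with fetal bovine serum at high glucose. There were 5 libraries of polyadenylated RNA, 1 per condition. Cells carried a short hairpin RNA (shPKM2) or a control hairpin (shControl) for 72 h, or received 1 of vehicle, shikonin and TEPP-46 over 8 h. Pyruvate kinase M2, or PKM2, is a splice form of the enzyme that ends glycolysis. Shikonin, a plant naphthoquinone, is used to inhibit it, and the small molecule TEPP-46 to activate it. Neither doses nor hairpin sequences are stated in the labels. With 1 library per condition no difference has a replicate check, no test was made, and every value describes these libraries. The hairpin cells and the 8 h cells differ in duration and in handling, so a difference between those sets cannot be told apart from either.

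J-domain proteins bind HSP70 through a J domain that carries a conserved His-Pro-Asp motif, and they speed up its hydrolysis of ATP so that it closes on a client protein. Nucleotide exchange factors then release ADP and the client. Class A members have a J domain at the amino end, a stretch rich in glycine and phenylalanine and a cysteine-rich zinc-binding region. Class B members lack the cysteine-rich region, and class C members share only the J domain, placed in otherwise unrelated proteins that bring HSP70 to one site or task. In muscle the family is known above all for DNAJB6, whose gene is mutated in a human limb-girdle muscular dystrophy.

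Depth was estimated from the low values as 22.4 to 30.9 times 1000000 reads per library, which is approximate. Pkm, the target of the hairpin, was lower in shPKM2 (1041 FPKM) than in shControl (2061 FPKM). The myoblast markers Myod1, Myf5, Des and Cdh15 were all present in every library, with a summed level of 375 to 455 FPKM in 4 libraries and 246 FPKM with shikonin. Markers of leukocytes, endothelium, epithelium, adipocytes and astrocytes summed to at most 0.257 FPKM in any library. The shikonin library held the highest value of a gene for 31.1% and the lowest for 34.6% of the 11128 genes that averaged 1 FPKM or more, the largest shares of any library on either side.

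FPKM is divided by gene length, so levels can be compared between genes. The highest members of class A by mean level were Dnaja2 (173 FPKM), Dnaja1 (102 FPKM) and Dnaja3 (33.6 FPKM). The highest of class B were Dnajb6 (121 FPKM), Dnajb1 (105 FPKM) and Dnajb11 (69.8 FPKM), and those of class C were Dnajc8 (103 FPKM), Dnajc2 (66.8 FPKM) and Dnajc7 (60.3 FPKM). Among the members that passed the minimum, median mean levels were 67.7 FPKM in class A, 34.3 FPKM in class B and 21.1 FPKM in class C.

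The 9 members below the minimum include genes known from testis or nerve. Dnajb3, Dnajb8 and Dnajc5g were listed at 0 in all 5 libraries. Dnajb13, a gene of motile cilia and sperm tails, was listed above 0 with vehicle alone (0.0608 FPKM), and Dnajc5b with shikonin alone (0.0538 FPKM). Dnajc6, which encodes the neuronal clathrin-uncoating factor auxilin, lay between 0.00781 and 0.0961 FPKM. Dnajb7 lay between 0.186 and 0.401 FPKM, Dnajc22 between 0.145 and 0.429 FPKM and Dnajc28 between 0.402 and 0.652 FPKM. At these levels a value rests on few reads, and no difference between libraries is drawn from them.

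**Figure D1:**
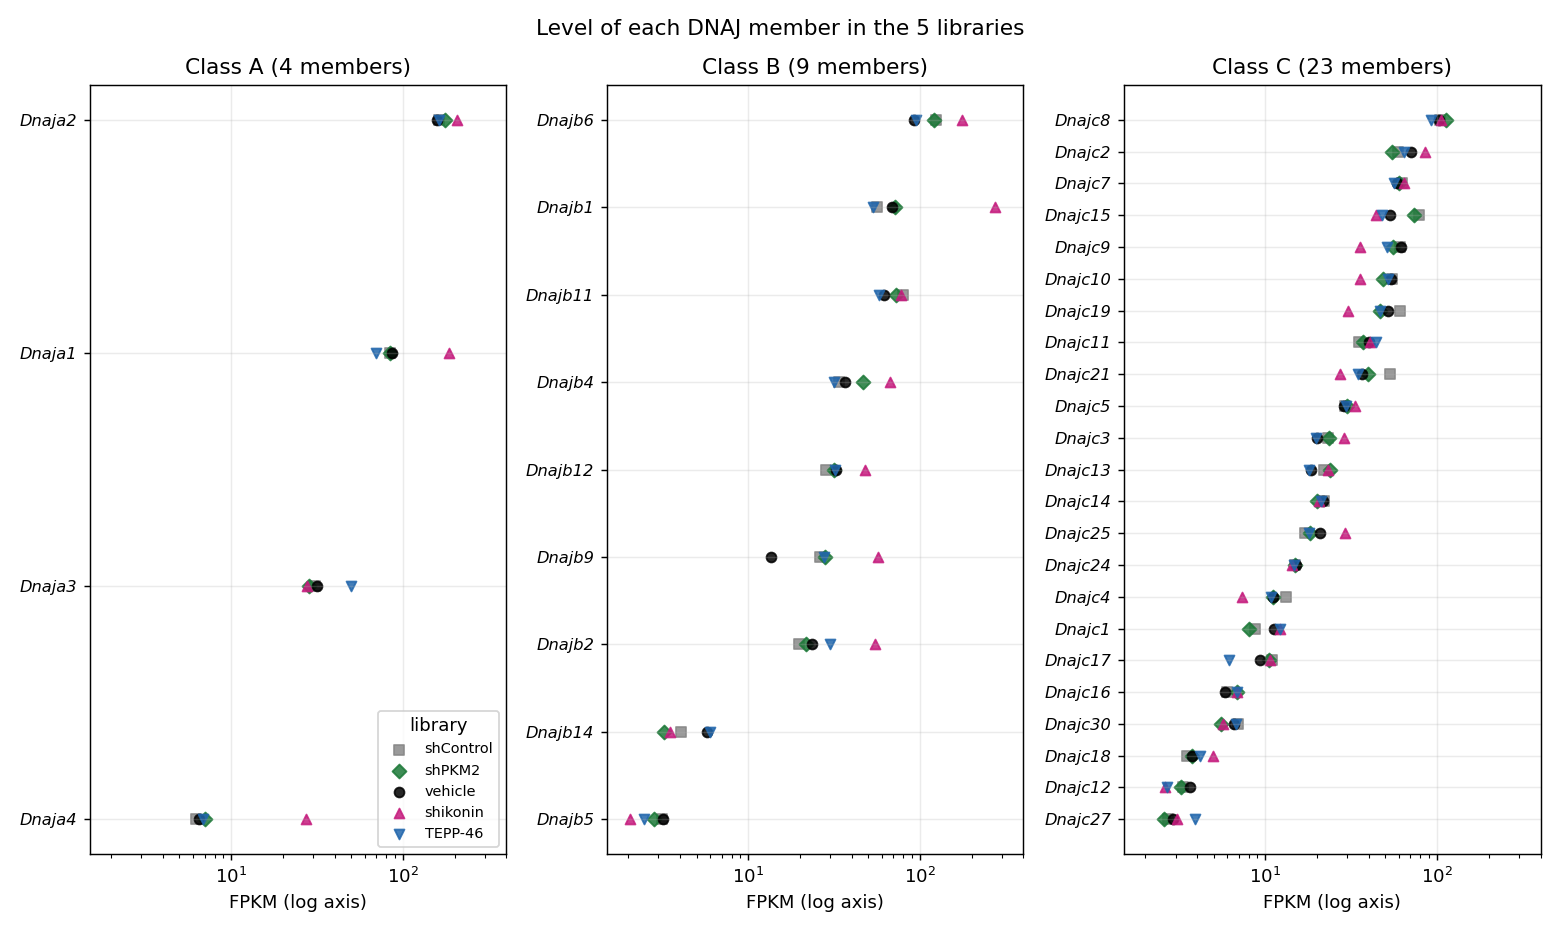
Level of the 36 members that averaged 1 FPKM or more, in each of the 5 libraries, by class and ordered by mean, on a log axis of FPKM; each point is 1 library. The shikonin triangle stands to the right of all other libraries for Dnaja1, Dnaja4, Dnajb1, Dnajb2 and Dnajb9, among others. It stands to the left for Dnaja3, Dnajb5, Dnajc9, Dnajc10 and Dnajc19, among others. Shikonin was highest for 17 and lowest for 10 of the 36 members, against 31.1% and 34.6% of all genes. In class C it was highest for 8 and lowest for 8 of 23. Dnajc24 and Dnajc14 hardly spread.

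Summed over members, class A held 282 FPKM with vehicle, 447 FPKM with shikonin, 288 FPKM with TEPP-46, 284 FPKM in shControl and 296 FPKM in shPKM2. Class B held 338, 760, 335, 375 and 398 FPKM in the same order of libraries. Class C held 710, 671, 664, 754 and 711 FPKM. The shikonin library thus stood apart in classes A and B and lay inside the range of the other libraries in class C. Class B made up 40.5% of the family's summed level with shikonin and 25.4% to 28.4% in the other libraries, while class C made up 35.7% with shikonin and 50.6% to 53.4% elsewhere.

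The HSP70 genes were also summed, since the co-chaperones act on their products. The 11 listed HSP70 genes summed to 3034 FPKM with vehicle, 6978 FPKM with shikonin, 2712 FPKM with TEPP-46, 3029 FPKM in shControl and 3180 FPKM in shPKM2. Per FPKM of HSP70 there were 0.269 FPKM of DNAJ members with shikonin and 0.438 to 0.474 in the other libraries. For classes A and B together the ratio was 0.173 with shikonin and 0.204 to 0.229 elsewhere. Hspa8, the constitutive HSP70 gene, gave 44.7% to 70.3% of the HSP70 sum and so sets much of this ratio.

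**Figure D2:**
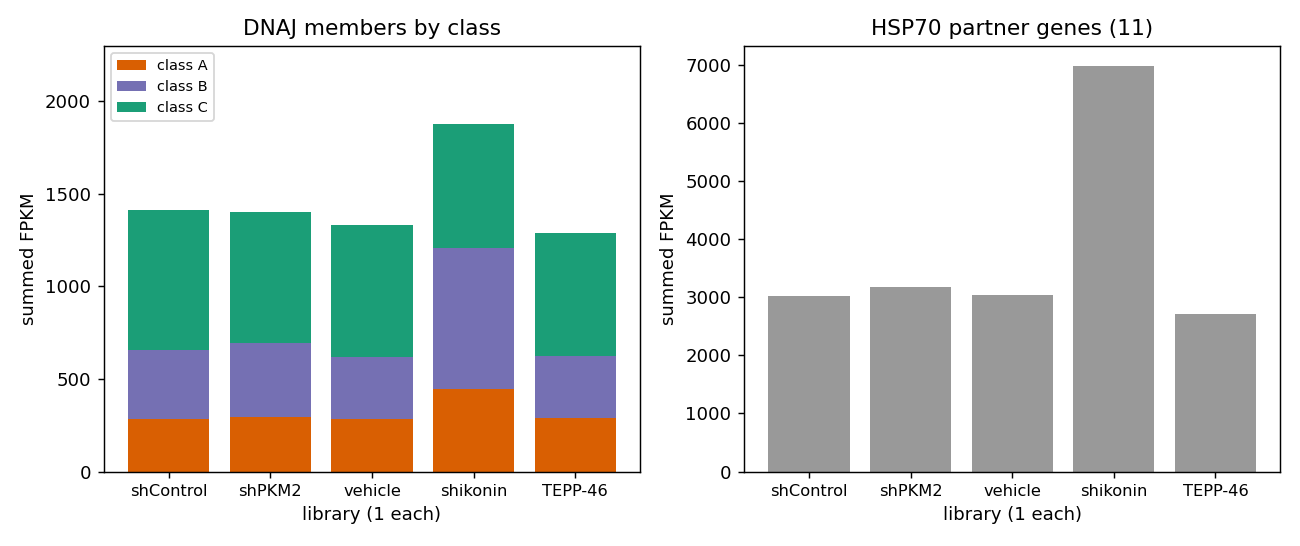
Summed FPKM of the DNAJ members by class (left, stacked bars) and of the 11 HSP70 genes (right) in each library, 1 library per bar. With shikonin the class B segment is 760 FPKM against 335 to 398 FPKM in the other libraries, the class C segment is 671 FPKM against 664 to 754 FPKM, and the HSP70 bar is 6978 FPKM against 2712 to 3180 FPKM.

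Shikonin against vehicle asked how the family stood after 8 h of a compound used against PKM2. Of 8 cytosolic members of classes A and B, 7 were higher with shikonin and 4 at least 2-fold, as was Dnajb9 of the endoplasmic reticulum (ER), while class C was spread around 0. Differences are of log2(FPKM + 1), 1 library minus the other, and the error beside them is a standard error (SE) from counting alone, which leaves out variation between cultures. At least 2-fold higher on this scale were 5 of the 36 members tested, against 4.01% of all 11128 genes. No member was at least 2-fold lower, against 3.5% of all genes. The 5 were 2 of 4 in class A, 3 of 9 in class B and 0 of 23 in class C. Median differences were 0.75 in class A, 0.85 in class B, 0.05 in class C and -0.03 over all genes. In direction, 3 of 4, 7 of 9 and 13 of 23 members were higher, against 47.6% of all genes.

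Dnajb1 encodes the main heat-inducible cytosolic HSP40. It stood at 274 FPKM with shikonin, 69.1 FPKM with vehicle, 52.9 FPKM with TEPP-46, 56.1 FPKM in shControl and 71.1 FPKM in shPKM2. The shikonin library lay far above the other libraries, which spread little, and the level was 3.97 times that of vehicle (difference 1.97, counting SE 0.021). Dnaja4, a cytosolic class A member known to respond to heat shock, stood at 27.3 FPKM with shikonin, 6.54 FPKM with vehicle, 6.86 FPKM with TEPP-46, 6.23 FPKM in shControl and 7.04 FPKM in shPKM2. Again shikonin alone was high, by 1.91 over vehicle (counting SE 0.077). In the GENCODE M21 annotation 44.1% of the exon bases of Dnaja4 lie opposite exons of Wdr61, and the use of strand is not given. Wdr61 differed by -0.15 with shikonin.

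Dnaja1 encodes a farnesylated cytosolic co-chaperone that helps folding and import into mitochondria. Its levels were 185 FPKM with shikonin, 85.8 FPKM with vehicle, 69.6 FPKM with TEPP-46, 84.1 FPKM in shControl and 84.1 FPKM in shPKM2, a difference of shikonin from vehicle of 1.10 (counting SE 0.038). It was the lowest of the 5 members past the 2-fold line, and Dnajb6 at 0.93 was the first below it. A pseudogene named Dnaja1-ps is annotated, so part of this value could be shared with a near copy. Dnajb2, whose product carries ubiquitin-interacting motifs, stood at 54.5 FPKM with shikonin, 23.5 FPKM with vehicle, 29.9 FPKM with TEPP-46, 19.7 FPKM in shControl and 21.7 FPKM in shPKM2. For both genes the shikonin value was above the other 4, by 1.18 over vehicle for Dnajb2 (counting SE 0.059).

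Dnajb9 encodes ERdj4, an ER co-chaperone of BiP that restrains the stress sensor IRE1. It stood at 57.1 FPKM with shikonin, 13.6 FPKM with vehicle, 27.6 FPKM with TEPP-46, 26.3 FPKM in shControl and 27.8 FPKM in shPKM2. Shikonin was the highest library and vehicle stood apart on the low side, with the other 3 between 26.3 and 27.8 FPKM. The difference from vehicle was 2.00 (counting SE 0.064), the highest of the family. Against shControl instead it was 1.09. The other 4 members named above differed from shControl by 1.13 (Dnaja1), 1.97 (Dnaja4), 2.27 (Dnajb1) and 1.42 (Dnajb2).

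Other class A and B members of the cytosol ranged widely with shikonin. Dnajb6 stood at 175 FPKM with shikonin, 91.7 FPKM with vehicle, 94.9 FPKM with TEPP-46, 123 FPKM in shControl and 121 FPKM in shPKM2. The hairpin libraries lay between vehicle and shikonin, so the difference of 0.93 from vehicle (counting SE 0.040) was 0.51 from shControl. Dnaja2, a general refolding co-chaperone and the member with the highest mean level, stood at 207 FPKM with shikonin, 158 FPKM with vehicle, 162 FPKM with TEPP-46, 163 FPKM in shControl and 176 FPKM in shPKM2. Shikonin was again highest, but by 0.39 only. Dnajb4, a close relative of Dnajb1, stood at 67.1 FPKM with shikonin, 36.7 FPKM with vehicle, 31.7 FPKM with TEPP-46, 33.9 FPKM in shControl and 46.7 FPKM in shPKM2. Shikonin was highest and shPKM2 next, and the difference from vehicle was 0.85. Dnajb5 was lower, at -0.47.

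The ER members other than Dnajb9 differed by less. Dnajb11 encodes ERdj3, an abundant soluble partner of BiP, and stood at 77.8 FPKM with shikonin, 61.8 FPKM with vehicle, 57.3 FPKM with TEPP-46, 79.6 FPKM in shControl and 72.5 FPKM in shPKM2. Its shikonin value lay below that of shControl, so its difference of 0.33 from vehicle was -0.03 from shControl. Dnajb12 and Dnajb14 are ER membrane proteins with the J domain in the cytosol, and they differed in opposite directions (0.54 and -0.57). Dnajc3, the ER protein P58IPK, was the highest of class C at 0.50, followed by the ER membrane protein gene Dnajc25 at 0.47. Dnajc18, Dnajc16 and Dnajc1, all of the ER, differed by 0.33, 0.20 and 0.11. Dnajc10 encodes ERdj5, a reductase of disulfide bonds, and went the other way at -0.60. In all, 8 of 10 listed ER members were higher with shikonin, against 47.6% of all genes, and their median was 0.33. The list was chosen with earlier results known and is not complete. It leaves out Sec63, an ER gene under another symbol (-0.08), and Dnajc14 (-0.07), which was given no site. At least 2-fold higher was 1 of the 10, against 4.01% of all genes.

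The low end with shikonin was mostly of class C, with Dnajb14 (-0.57) and Dnajb5 (-0.47) of class B among the lowest. Dnajc9, which encodes a chaperone of newly made histones H3 and H4, differed most (-0.78, counting SE 0.060), with 35.5 FPKM against 61.9 FPKM. Dnajc19, which encodes a part of the motor that pulls proteins into mitochondria, stood at 30.2 FPKM against 51.9 FPKM (-0.76). Both were lower with shikonin than in any other library. Dnajc4 (-0.54), Dnajc21, for maturation of the large ribosomal subunit (-0.43), Dnajc12 (-0.36), Dnajc15, a relative of Dnajc19 (-0.27), and the complex I factor gene Dnajc30 (-0.18) were lower too. Of the 5 tested mitochondrial members 4 were lower, among them the class A member Dnaja3 (-0.17), with Dnajc11 at 0.01. Of all genes 47.6% were higher with shikonin, so a count among 5 members says little. A pseudogene of Dnajc19 is annotated as well.

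The highest class C members were among those that differed little. Dnajc8, which encodes a spliceosome-associated protein, stood at 106 FPKM with shikonin, 102 FPKM with vehicle, 92.1 FPKM with TEPP-46, 104 FPKM in shControl and 113 FPKM in shPKM2. Dnajc7, whose product binds both HSP70 and HSP90, stood at 64.2 FPKM with shikonin, 58.7 FPKM with vehicle, 56.1 FPKM with TEPP-46, 62.5 FPKM in shControl and 60.02 FPKM in shPKM2. For neither gene did a library stand apart. Dnajc2, for a co-chaperone at the ribosome, was at 84.6 FPKM with shikonin, 70.7 FPKM with vehicle, 64.5 FPKM with TEPP-46, 59.4 FPKM in shControl and 54.9 FPKM in shPKM2, so that shikonin was highest and both hairpin libraries were lowest.

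Other members of class C also differed little from vehicle. With shikonin Dnajc13, for an endosomal protein, differed by 0.31, the vesicle protein gene Dnajc5 by 0.20, the splicing factor gene Dnajc17 by 0.17 and Dnajc27, which joins a small GTPase to a J domain, by 0.06. Dnajc14 (-0.07) and Dnajc24 (-0.09), the latter for synthesis of diphthamide, were near 0. Across all 5 libraries the highest value was 1.07 times the lowest for Dnajc24, the smallest such ratio in the family, and 5.19 times for Dnajb1, the largest. The median of this ratio was 2.22 in class A, 1.91 in class B, 1.47 in class C and 1.62 over 11067 genes listed above 0 in every library. A ratio of at least 2 was found in 2 of 4, 4 of 9 and 1 of 23 members of classes A, B and C and in 27.8% of those genes.

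**Figure D3:**
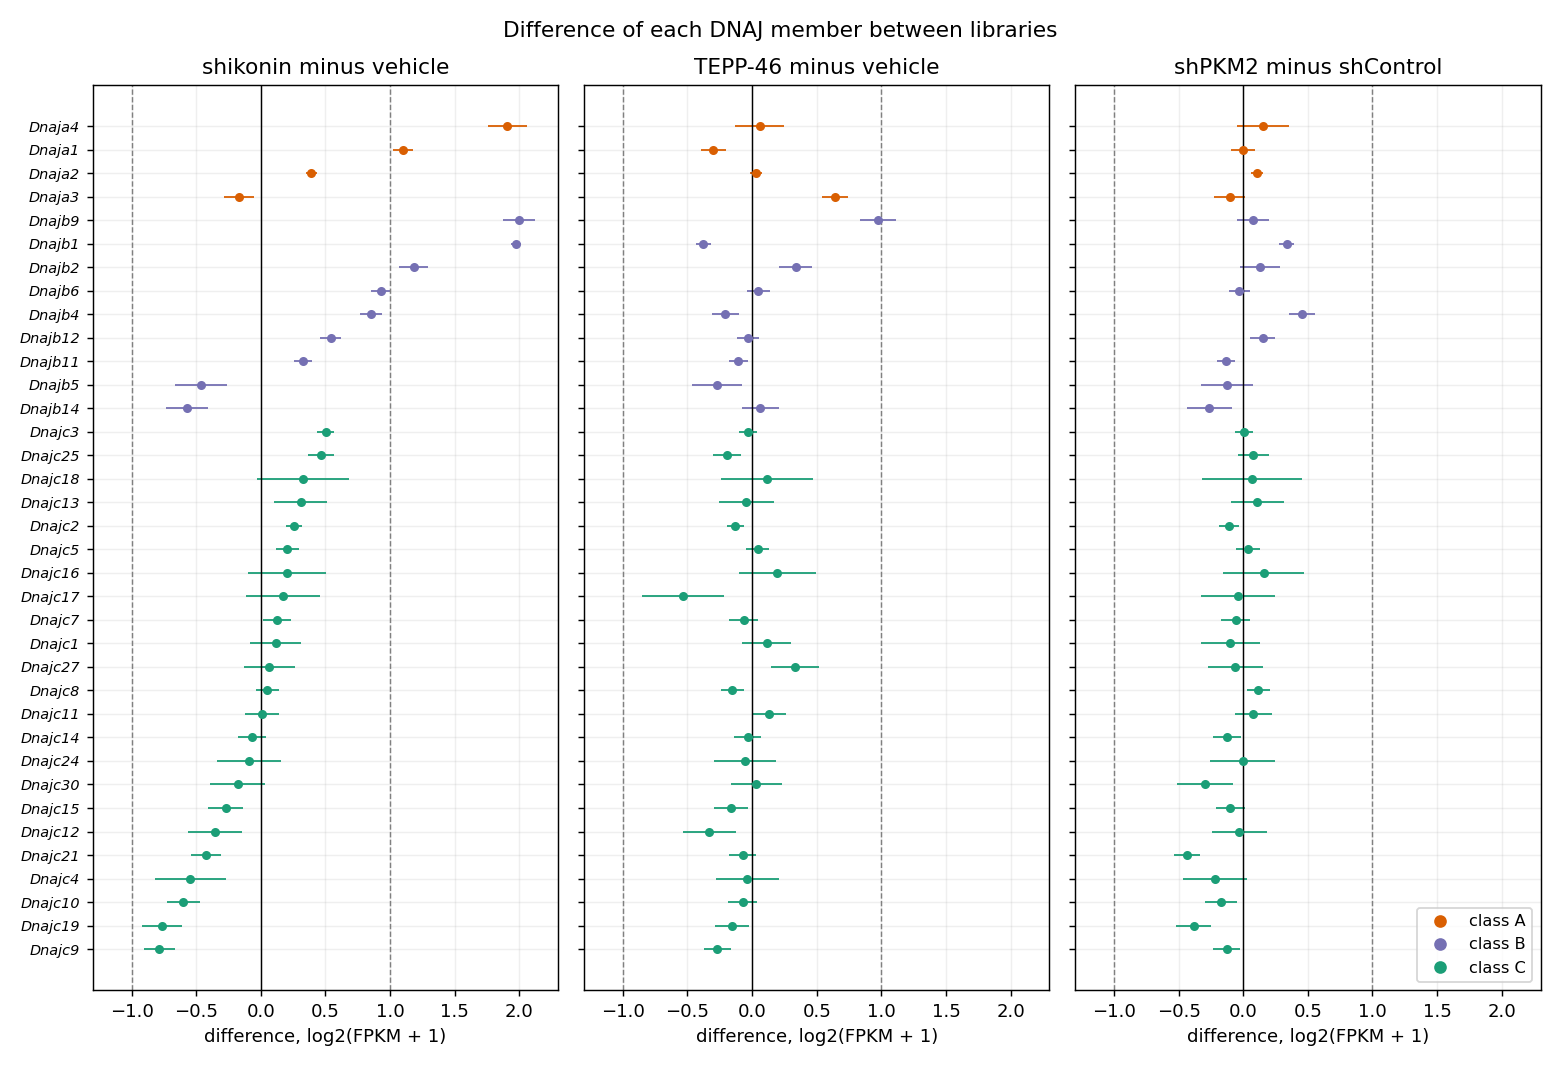
Difference in log2(FPKM + 1) of each of the 36 members for shikonin minus vehicle, TEPP-46 minus vehicle and shPKM2 minus shControl, coloured by class and ordered by the first panel. Bars are 95% intervals from counting alone and dashed lines mark 2-fold. In the first panel 5 members of classes A and B lie beyond the 2-fold line, and in the other panels none does, Dnajb9 with TEPP-46 coming closest at 0.98.

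Some partners of the family were higher with shikonin as well. Of the 11 HSP70 genes 7 were higher and 4 lower in direction, 5 were at least 2-fold higher (4.01% of all genes were) and none at least 2-fold lower (3.5% were), with Hspa1a at 5.62, Hspa1b at 4.80, Hspa5, the gene of BiP, at 1.79 and Hspa8 at 1.12. Hspa1a stood at 100 FPKM with shikonin and between 0.668 and 1.23 FPKM in the other libraries. It passed the minimum mean only through the shikonin library, so its place among the 5 is not separate from that value. Hspa1a and Hspa1b are near-identical, and reads may be divided between them wrongly. Of 13 nucleotide exchange factor genes 9 were higher and 4 lower in direction, against 47.6% of all genes higher. At least 2-fold higher were 2 of them, against 4.01% of all genes, Hsph1 at 2.51 and Bag3 at 1.75, while Grpel1, the mitochondrial one, was at 0.56 and Sil1, which serves BiP in the ER, at -0.51. The medians were 0.45 for HSP70 genes and 0.19 for exchange factors. The myoblast markers were all lower with shikonin, Myod1 at -1.25, Myf5 at -1.32, Cdh15 at -0.78 and Des at -0.76. Of the 4 markers of differentiated muscle Myog (-2.30), Acta1 (-1.06) and Myh3 (-0.61) were lower and Ckm was at 0.08, with a summed level of 13.1 FPKM with shikonin, 32.8 FPKM with vehicle and 22.6 to 38.8 FPKM in the other libraries. The part of these markers in the result was not tested.

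Promoters were searched because several members were higher together with shikonin. RefSeq promoters (GRCm38.p6) were found for 37 of the 45 members, with 50 annotated starts. The 250 bases before each start were searched on both strands. The heat shock element was searched as 3 units (GAANNTTCNNGAA or TTCNNGAANNTTC) and as 2 units (GAANNTTC or TTCNNGAA), the shorter lying inside the longer. The ER stress element was searched as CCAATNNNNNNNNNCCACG and an ATF4 and C/EBP element as TGATGNAA. The 3-unit form was found in Dnajb6 alone, 1 of 37 members, against 0.466% of all 32851 promoters and 0.514% of genes. The 2-unit form was found in Dnaja1, Dnaja4, Dnajb4, Dnajb6, Dnajc10 and Dnajc27, which is 6 of 37 members against 12.8% of all promoters and 14.5% of genes. The ER stress element was found in Dnajc3 alone, 1 of 37 members, against 0.113% of promoters and 0.13% of genes. The ATF4 element was found in no member, against 3.45% of promoters and 3.91% of genes.

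The 150 bases before the start are shown for the 5 members with a match inside them (those of Dnajc10 and Dnajc27 lie further upstream) and for Dnajb1 and Dnajb9, the most different members with shikonin, which had none. Sequences run 5′ to 3′ on the gene's strand and capitals mark the matches.
Dnajb6 (chr5:29735748-29735897, plus strand): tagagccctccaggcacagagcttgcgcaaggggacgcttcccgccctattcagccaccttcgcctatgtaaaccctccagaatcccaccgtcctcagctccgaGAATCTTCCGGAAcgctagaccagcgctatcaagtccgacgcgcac
Dnaja4 (chr9:54699409-54699558, plus strand, its second annotated start): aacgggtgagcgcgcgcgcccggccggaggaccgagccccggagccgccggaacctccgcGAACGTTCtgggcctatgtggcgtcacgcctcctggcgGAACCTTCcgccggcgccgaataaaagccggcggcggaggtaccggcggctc
Dnaja1 (chr4:40722318-40722467, plus strand): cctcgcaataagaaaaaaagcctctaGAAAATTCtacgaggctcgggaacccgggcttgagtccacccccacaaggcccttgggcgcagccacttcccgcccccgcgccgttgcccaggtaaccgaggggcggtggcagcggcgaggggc
Dnajb4 (chr3:152193846-152193995, minus strand, its second annotated start): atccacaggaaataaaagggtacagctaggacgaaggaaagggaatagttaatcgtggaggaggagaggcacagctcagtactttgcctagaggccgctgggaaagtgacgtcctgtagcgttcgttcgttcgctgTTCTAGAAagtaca
Dnajc3 (chr14:118937782-118937931, plus strand): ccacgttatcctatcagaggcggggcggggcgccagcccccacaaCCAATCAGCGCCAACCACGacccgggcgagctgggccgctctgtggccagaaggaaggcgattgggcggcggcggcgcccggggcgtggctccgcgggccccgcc
Dnajb1 (chr8:83608025-83608174, plus strand): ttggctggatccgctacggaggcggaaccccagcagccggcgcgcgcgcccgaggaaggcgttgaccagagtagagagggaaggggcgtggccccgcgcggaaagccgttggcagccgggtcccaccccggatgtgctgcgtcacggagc
Dnajb9 (chr12:44210069-44210218, minus strand): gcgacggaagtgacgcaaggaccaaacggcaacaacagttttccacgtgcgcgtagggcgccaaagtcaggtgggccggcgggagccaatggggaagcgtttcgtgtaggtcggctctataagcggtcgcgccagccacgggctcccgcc
In Dnajb6 the match covers bases -46 to -34 and joins both 2-unit orientations, and in Dnaja4 there are 2 separate matches, at -90 to -83 and -52 to -45. A match in these letters is a description of the sequence and not a site shown to be bound. Of the 4 cytosolic members at least 2-fold higher with shikonin, Dnaja1 and Dnaja4 hold a 2-unit match and Dnajb1 and Dnajb2 hold none in this window. Of 8289 genes that averaged 1 FPKM or more and had a promoter, 12.2% hold one. Whether the match goes with the difference was not tested.

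TEPP-46 against the same vehicle library asked about a PKM2 activator. Since shikonin and TEPP-46 were set against 1 vehicle library, their differences from it are not independent, and each is given by its own values. No member was at least 2-fold higher on the log2(FPKM + 1) scale, against 1.23% of all genes, and none was at least 2-fold lower, against 0.359%. In direction 14 members were higher and 22 lower, against 49.5% of all genes higher. Medians were 0.05 in class A, -0.03 in class B, -0.05 in class C and 0.00 over all genes, and 33 of 36 members lay within 0.5 of 0.

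The members furthest from vehicle with TEPP-46 were Dnajb9 and Dnaja3. Dnajb9 was higher by 0.98 (counting SE 0.071), a ratio of FPKM of 2.04. The TEPP-46 value of 27.6 FPKM lay within the range of both hairpin libraries, and against shControl the difference was 0.07. Dnaja3 encodes the mitochondrial class A member, also called Tid1, and stood at 49.6 FPKM with TEPP-46, 31.4 FPKM with vehicle, 27.8 FPKM with shikonin, 30.7 FPKM in shControl and 28.5 FPKM in shPKM2. TEPP-46 alone was high and the other 4 libraries lay close together. The difference was 0.64 from vehicle (counting SE 0.050) and 0.68 from shControl. Dnajb2 was higher by 0.34 and Dnajc27 by 0.33.

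On the low side with TEPP-46 stood Dnajc17, at 6.17 FPKM against 9.37 FPKM (-0.53, counting SE 0.16). Its TEPP-46 value was the lowest of the 5 libraries, which otherwise ran from 9.37 to 10.9 FPKM. Dnajb1 differed by -0.38 (counting SE 0.029), Dnajc12 by -0.33, Dnaja1 by -0.30, Dnajb5 by -0.27, Dnajc9 by -0.27 and Dnajb4 by -0.21. The 5 members listed for ribosome, spliceosome and histones were all lower with TEPP-46 (median -0.15), against 49.5% of all genes higher. Of all 36 members 22 were lower, and of class C 16 of 23. Among the HSP70 partners Hspa5 was at 1.13, Hspa9, the mitochondrial HSP70 gene, at 0.52, Hspa1b at -0.49 and Hspa8 at -0.81, so 1 of 11 was at least 2-fold higher, against 1.23% of all genes. None of the 13 exchange factor genes was at least 2-fold apart, Hsph1 (-0.45) and Hyou1 (0.33) being the ends.

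Set against each other, the libraries of the 2 compounds differed most in the cytosolic heat shock members. Higher with shikonin than with TEPP-46 by at least 2-fold were 5 of 36 members, against 3.64% of all genes, and none was at least 2-fold lower, against 3.64%. They were Dnajb1 (2.35, counting SE 0.026, a 5.19-fold ratio), Dnaja4 (1.85), Dnaja1 (1.40), Dnajb4 (1.06) and Dnajb9 (1.02). In direction 21 members were higher with shikonin, against 46.6% of all genes. On the low side were Dnaja3 (-0.81), Dnajb14 (-0.64), Dnajc19 (-0.61), Dnajc10 (-0.53) and Dnajc9 (-0.52), while Dnajc17 was at 0.71. All 5 tested mitochondrial members were lower with shikonin than with TEPP-46, with a median of -0.21. Medians were 0.88 in class A, 0.84 in class B, -0.03 in class C and -0.04 over all genes.

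The knockdown comparison, shPKM2 against shControl at 72 h, asked how the family stood where Pkm was lower than with the control hairpin. No member was at least 2-fold higher, against 0.395% of all genes, or at least 2-fold lower, against 0.225%, and all 36 lay within 0.5 of 0. In direction 16 members were higher and 20 lower, against 50.2% of all genes higher. The ends were Dnajb4, at 46.7 FPKM against 33.9 FPKM (0.45, counting SE 0.051), and Dnajc21, at 39.4 FPKM against 53.5 FPKM (-0.43, counting SE 0.050). Dnajb1 was higher by 0.34, and Dnajc19 (-0.38), Dnajc30 (-0.29) and Dnajb14 (-0.26) were lower. For Dnajb1 the shPKM2 value of 71.1 FPKM was close to vehicle (69.1 FPKM), with shControl at 56.1 FPKM. For Dnajc21 the shControl value was the highest of the 5 libraries, and shPKM2 differed from vehicle by 0.10. Dnajb4 differed from vehicle by 0.34.

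Medians in the knockdown comparison were 0.05 in class A, 0.08 in class B, -0.06 in class C and 0.00 over all genes. Among partners none of the 11 HSP70 genes was at least 2-fold apart, Hspa1a (0.42) and Hspa2 (-0.36) being the ends, with Hspa12b at -0.30 and Hspa1l at 0.19. Hspa1a was very low in both libraries, at 1.23 FPKM in shPKM2 and 0.668 FPKM in shControl (counting SE 0.12). Its near-identical copy Hspa1b was at -0.06. None of the 13 exchange factor genes was either, and these ran from -0.16 (Sil1) to 0.13 (Hsph1).

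The control libraries were also set against each other. They differ in duration and handling, so their difference does not measure noise in the other comparisons. No member was at least 2-fold higher in shControl than in vehicle, against 3.48% of all genes, or at least 2-fold lower, against 0.665%. In direction 18 were higher and 18 lower, against 46.9% of all genes higher. Dnajb9 was highest (0.91), followed by Dnajc15 (0.55), Dnajc21 (0.53) and Dnajb6 (0.42), and Dnajb14 was lowest (-0.41), followed by Dnajc1 (-0.34) and Dnajb1 (-0.30). Dnajc15 was high in both hairpin libraries, at 78.6 FPKM in shControl and 73.3 FPKM in shPKM2 against 44.1 to 53.5 FPKM in the 8 h libraries. For members named in the knockdown comparison, the differences between the controls were -0.11 (Dnajb4), 0.22 (Dnajc19), 0.07 (Dnajc30), -0.30 (Dnajb1), 0.53 (Dnajc21) and -0.41 (Dnajb14). Both comparisons use the same shControl library, with opposite sign. Their values are therefore not independent, and the size of one is no measure of the other.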

How the data were processed

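Polyadenylated RNA of 5 C2C12 cultures was sequenced, 1 library per condition. The submitters' processing notes name FastQC, cutadapt, Trim Galore 0.6.0 and DESeq2 1.26.0 and the build GRCm38. How reads were aligned and counted, on which annotation and with what strand setting, is not given in the sources used here. Levels are the authors' deposited FPKM values, already divided by gene length and a measure of library size, so a count model was not used. Of the 78360 values above 0, 138 are under 1e-06 FPKM, so not every value is a whole number of reads. Columns were matched to conditions by name. The control hairpin column carries a number after its name, unexplained in the labels.

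Values were transformed as log2(FPKM + 1) and compared between single libraries, over genes averaging 1 FPKM or more. Genes were called by size, at least 2-fold on this scale. Depth was read from genes whose values were whole multiples of 1 step (tolerance 0.02), with GENCODE M21 transcript lengths. For the vehicle library 491 single-transcript genes gave a median of 30.9 (quartiles 27.8 and 32.4) in units of 1000000 reads. Counting SEs use these depths and the median transcript length of each gene. The depths are approximate and the SEs cover counting error only. The depth and difference steps were tested on simulated data. Of 50 RefSeq promoters of members, the first transcribed bases of 40 were found in a GENCODE transcript in the given orientation, and none in the reverse. Every member is named. Full values are given for members at least 2-fold apart, for all of class A and for the 3 highest of each class by mean level. Members, lists and this rule were chosen with earlier results of these data known, and the 2-unit motif after the 3-unit search. Analyses used Python 3.11.15, numpy 2.4.6 and pandas 2.3.3.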

Additional observations from a re-analysis of the deposited data

How the results depend on the processing

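Alternatives were pseudocounts of 0.1 and 5, a minimum mean of 5 FPKM or none, rescaling to TPM, centring on the median of all genes, median-of-ratios factors and exchange of the control library. Of 76 alternative counts of members at least 2-fold apart, 74 stayed within 1.5 times the count given, or at 0 where it was 0. Only the counts higher with shikonin than with vehicle or TEPP-46 were above 0. Most of the 76 thus show only that a count of 0 stayed at 0. Median-of-ratios factors were 0.998 to 1.001, so that setting could change little. With a pseudocount of 0.1 the count higher with TEPP-46 became 1 (Dnajb9), and with a pseudocount of 5 the count higher with shikonin than with TEPP-46 became 3 (Dnaja1, Dnaja4, Dnajb1). Rescaling to TPM made the latter count 4, without Dnajb9. With shControl in place of vehicle the same 5 members were at least 2-fold higher with shikonin. Of 114 alternative class medians, 111 stayed within a counting half-width of the value given, and no median larger than that half-width changed sign. The half-width was the median over class members of the 95% counting half-width of a single gene. It is thus that of a typical gene and not of the class median. The class B median for shikonin became 0.33 against vehicle and 0.43 against TEPP-46 with no minimum mean, which adds 4 members at or near 0, and 0.74 against shControl. TPM moved the median of all genes to at most 0.09 in size. No paired analysis was possible because each condition had 1 library, and for the same reason no library could be left out of a group.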

Other observations

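Some J-domain genes carry other symbols and fall outside the rule, and 3 of them are given here. Hscb, which encodes the mitochondrial co-chaperone of iron-sulfur cluster assembly, stood at 9.30 FPKM with TEPP-46, 5.66 FPKM with vehicle, 4.27 FPKM with shikonin, 8.86 FPKM in shControl and 9.72 FPKM in shPKM2. The vehicle and shikonin libraries were low, so TEPP-46 differed from vehicle by 0.63 and shikonin from TEPP-46 by -0.97. Gak, for a clathrin-uncoating kinase with a J domain, was higher than vehicle with shikonin (0.47) and with TEPP-46 (0.44). Sec63, of the ER protein translocation channel, ran from -0.22 (shikonin against TEPP-46) to 0.14 (TEPP-46 against vehicle) over the 5 comparisons.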
